A study of Arabidopsis thaliana with 4 samples.

Results

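Plants read calcium signals with proteins that bind the ion through EF-hand loops. Calmodulins (CAM) and calmodulin-like proteins (CML) change shape on binding calcium and pass the signal to partner proteins. Calcium-dependent protein kinases (CPK) carry the sensor and the kinase in 1 chain, whereas calcineurin B-like sensors (CBL) act through separate kinases (CIPK). Calmodulin is also the light chain of plant myosins and sits on their IQ motifs. Many CML genes are known for rapid induction by touch, wounding, pathogens or low oxygen in leaves.

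The calcium sensor genes were taken as the probe sets listed to 1 gene whose symbol is CAM, CML, CPK, CIPK or CBL followed by a number. This found 7 of the 22746 probe sets that are not array controls. All 7 were CML genes: CML23, CML30, CML37, CML38, CML41, CML42 and CML43. The reference table holds 76 genes with such symbols, of which 9 are CAM, 8 CML, 29 CPK, 21 CIPK and 9 CBL genes. These counts go by symbol alone and are not the sizes of the families. AT1G76640, for example, has the name CML39 only as a synonym and is not counted. No probe set is named here for the other 4 families, so the families were not compared with each other and the myosin light chain calmodulins were not analysed here. The label of calcium sensors thus stands for calmodulin-like genes in these data. All 7 probe sets carry the plain _at suffix, which Affymetrix gave to probe sets designed for a single transcript.

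Total RNA of Arabidopsis thaliana was hybridised to 1-colour Affymetrix arrays, with 1 array per group of plants. RNAi groups 2 and 3 were independent groups of plants that carry an inverted repeat made from the open reading frame of Myosin XI-K, an actin-based motor, and RNAi group 1 is labelled the same way. The control plants constitutively expressed the bacterial GUS reporter as a transgene. Every sample mixed rosette leaves, cauline leaves and flowers in equal parts. The labels give no accession, age, number of plants or promoter of the inverted repeat.

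The series set out to compare the RNAs of the myosins between silenced and control plants. The columns of the GUS control and RNAi group 1 hold identical values in all 22810 rows, against 56 to 67 equal rows for other pairs of columns. They were counted as 1 sample, called the shared array. Whether it measured control or silenced plants cannot be told apart, so no difference below separates silenced from unsilenced plants with certainty. Since Myosin XI-K has no named probe set here, its level could not serve as a check of the labels. Of the marker lists for the mixed tissue, 3 of 6 leaf genes had a named probe set, with summed signals of 43884 in RNAi group 2, 53755 in RNAi group 3 and 53640 on the shared array. The 3 leaf genes differed: in RNAi group 2, RCA was 0.97-fold of the shared array, LHCB4.1 0.72-fold and PSAN 0.71-fold. In RNAi group 3, RCA was 1.03-fold, LHCB4.1 1.00-fold and PSAN 0.94-fold. Of 6 flower organ identity genes, 0 had a named probe set. The 2 root markers summed to 43.7 in RNAi group 2, 47.4 in RNAi group 3 and 33.7 on the shared array. Both were too dim for the filter described below, and they went opposite ways. PYK10 had 41.9 in RNAi group 2 and 45.7 in RNAi group 3, against 22.1 on the shared array. EXPA7 had 1.8 in RNAi group 2 and 1.7 in RNAi group 3, against 11.6 on the shared array.

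None of the calmodulin-like genes passed the test when the 2 arrays of RNAi groups 2 and 3 were set against the 1 shared array. The signals are the deposited MAS5 intensities, in which every array has the same trimmed mean. Since each probe set binds with its own strength, signals are compared here between arrays and not between genes. Of the 7 genes, 6 passed the filter on dim signals, a mean log2 signal above 5.307, and CML43 did not. By limma's moderated test 0 of these 6 had an adjusted p under 0.05, and 0 had an unadjusted p under 0.05. Over all 15922 probe sets past the filter, 0.0314% passed, so a count of 0 among 6 does not set the genes apart. For 4 of the 6 genes the RNAi groups lay on opposite sides of the shared array, as did 46.5% of all probe sets past the filter.

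CML38, a touch, wound and low-oxygen induced gene, had a signal of 3368.6 in RNAi group 2 and 1813.1 in RNAi group 3, against 3054.3 on the shared array. RNAi group 2 lay close to the shared array and RNAi group 3 was the low one. The mean log2 difference of both RNAi groups from the shared array was -0.31 (SE 0.57; limma adjusted p = 0.9999), with a 95% interval from -1.60 to 0.99. Its close relative CML37, known for roles in wound and drought responses, had 480.6 in RNAi group 2 and 308.0 in RNAi group 3, against 415.7 on the shared array. The order of the arrays was the same as for CML38, and the mean log2 difference was -0.11 (SE 0.53), with a 95% interval from -1.33 to 1.11.

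**Figure D1:**
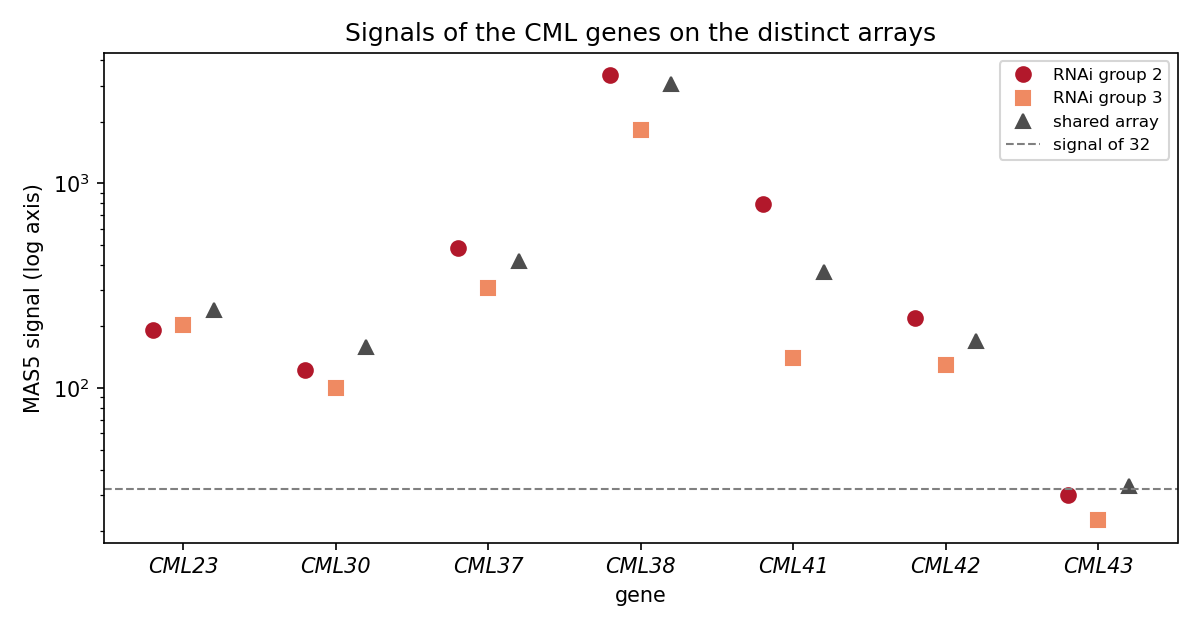
MAS5 signal (log axis) of each calmodulin-like gene on the 3 distinct arrays, with circles for RNAi group 2, squares for RNAi group 3 and triangles for the shared array. CML41 shows the widest gap between RNAi groups, at 792.5 and 139.7, and CML43 lies near the dashed line at a signal of 32 on every array.

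CML41 is known to act at plasmodesmata, the channels between plant cells, where it takes part in callose deposition during immunity. It had 792.5 in RNAi group 2 and 139.7 in RNAi group 3, against 370.7 on the shared array. RNAi group 2 was thus 2.14-fold above the shared array, and the shared array was 2.65-fold above RNAi group 3. The other members past the filter stayed within 2-fold in each RNAi group. Among all probe sets past the filter, 6.29% were at least 2-fold higher in RNAi group 2 than on the shared array and 3.95% at least 2-fold lower in RNAi group 3. Because the groups moved to opposite sides, the mean log2 difference was only -0.16 (SE 0.90), with a 95% interval from -2.21 to 1.90.

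CML42, which is known to affect trichome branching and the defence against feeding insects, had 219.5 in RNAi group 2 and 130.1 in RNAi group 3, against 170.3 on the shared array. The shared array again lay between both RNAi groups. The mean log2 difference was -0.01 (SE 0.57), with a 95% interval from -1.31 to 1.29. CML43, known as a pathogen-induced gene, had 30 in RNAi group 2 and 22.6 in RNAi group 3, against 33.2 on the shared array. All 3 values lie near a signal of 32, under which 25.0% to 27.7% of the probe sets of an array fall, so its order carries little weight. Its mean log2 difference was -0.35 (SE 0.85) in a separate fit without the filter, and -0.05 with signals under 32 set to 32.

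CML23 and CML30 were the genes past the filter that lay below the shared array in both RNAi groups. CML23, known for a part in flowering time, had 191.3 in RNAi group 2 and 202.7 in RNAi group 3, against 241.8 on the shared array. Both RNAi values were close to each other, and the mean log2 difference was -0.30 (SE 0.51), with a 95% interval from -1.46 to 0.87. CML30, whose product has been located to mitochondria, had 122.9 in RNAi group 2 and 99.8 in RNAi group 3, against 157.8 on the shared array. Its mean log2 difference of -0.51 (SE 0.56; limma adjusted p = 0.9999) was the lowest among the 6 genes, with a 95% interval from -1.79 to 0.77. Over all probe sets past the filter, 23.3% were lower in both RNAi groups and 30.2% were higher in both, against 2 and 0 of the 6 genes.

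**Figure D2:**
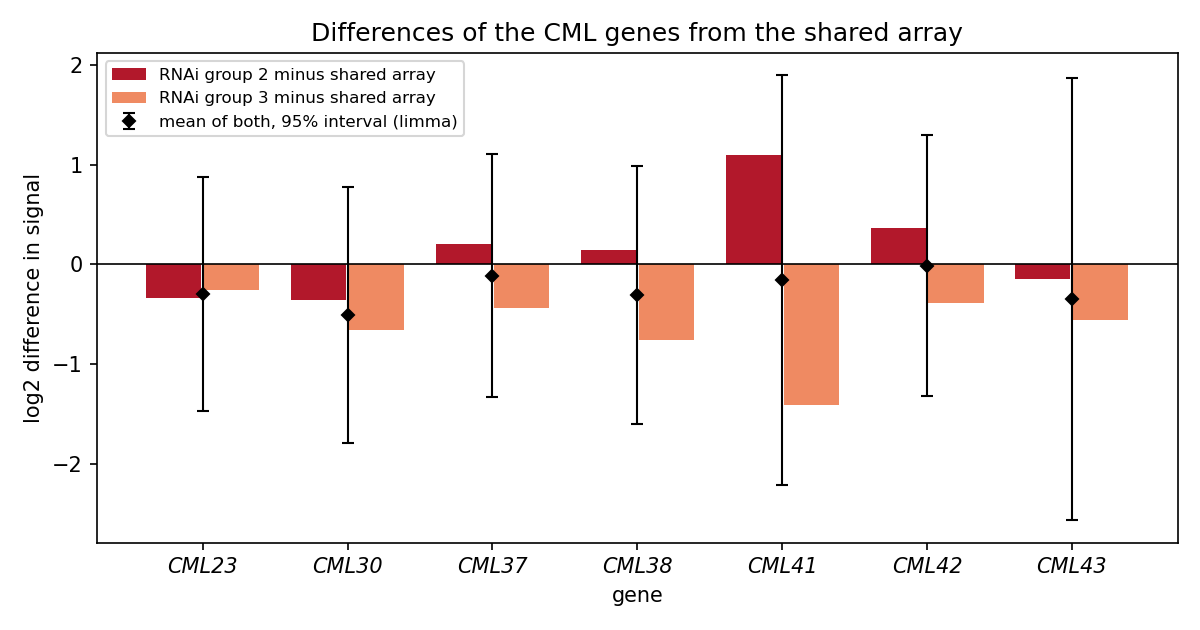
Log2 difference in signal from the shared array for each calmodulin-like gene, as bars for RNAi group 2 (left) and RNAi group 3 (right), with diamonds for the mean of both and its 95% interval from limma. All intervals span 0, and for CML37, CML38, CML41 and CML42 the bars point to opposite sides.

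As a group, the 6 genes past the filter had a median log2 difference of -0.23 from the shared array, beside 0.04 over all probe sets past the filter. The median was 0.18 in RNAi group 2 and -0.55 in RNAi group 3, so its sign rests on RNAi group 3. Against 46.6% of all probe sets past the filter, 6 of the 6 genes were lower in RNAi group 3 than on the shared array. At least a 2-fold difference in 1 direction in both RNAi groups was found for 0 of the 6 genes, beside 1.27% higher and 0.364% lower over all. These counts share the 1 array and describe it as much as they describe the RNAi groups.

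RNAi groups 2 and 3 can be set against each other without the shared array, with 1 array each and hence no test. Of the 6 genes, 5 had the higher signal in RNAi group 2, beside 50.7% of all probe sets past the filter. CML41 was 5.67-fold higher in RNAi group 2, CML38 1.86-fold, CML42 1.69-fold, CML37 1.56-fold and CML30 1.23-fold. CML23 differed least, at 0.94-fold. CML41 alone reached 2-fold, as did 9.54% of all probe sets past the filter in that direction. The median log2 difference of the 6 genes was 0.70, RNAi group 2 minus RNAi group 3, beside 0.01 over all.

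CML37, CML38, CML41 and CML42 shared an order, with RNAi group 2 highest, the shared array between and RNAi group 3 lowest. That order held for 4 of the 6 genes and for 23.3% of all probe sets past the filter. CML23 and CML30 were highest on the shared array instead. The order was noticed in these values and was not tested.

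**Figure D3:**
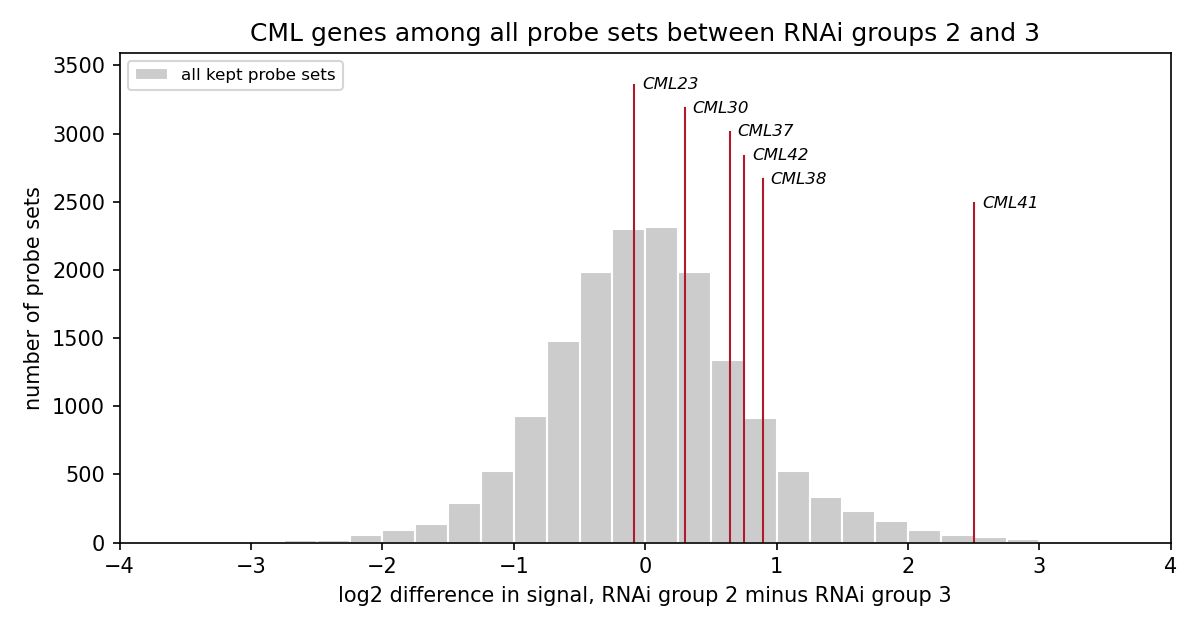
Number of probe sets past the filter by their log2 difference in signal, RNAi group 2 minus RNAi group 3 (grey bars of 0.25 log2 units; 26 probe sets beyond 4 log2 units are not drawn). Red lines mark the 6 calmodulin-like genes past the filter; 5 lie above 0 and CML41, at 2.50, lies far to the right.

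The reference table gives the name CML39 as a synonym of both CML37 and AT1G76640, and AT1G76640 is the gene next to CML38 on the chromosome. AT1G76640 is no member by symbol and is described here because of that synonym. It had 41.1 in RNAi group 2 and 199.4 in RNAi group 3, against 72.4 on the shared array. Its order was the reverse of that of CML38, with RNAi group 3 highest at 4.85-fold over RNAi group 2. The mean log2 difference from the shared array was 0.32 (SE 0.91), with a 95% interval from -1.76 to 2.41. The gene on the other side of CML38, AT1G76660, had 150.2 in RNAi group 2 and 197.8 in RNAi group 3, against 199.9 on the shared array. CML23 lies next to the calmodulin gene CAM4, for which no probe set is named here.

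The genes around the sensors in the pathway gave few named probe sets. Of 39 genes for calcium entry and export, 2 had one, both glutamate receptor-like channels. GLR3.3, a channel of wound signalling between leaves, had 292.7 in RNAi group 2 and 266.7 in RNAi group 3, against 399.6 on the shared array, a mean log2 difference of -0.52 (SE 0.50). GLR3.6, which acts in the same process, had 58.3 in RNAi group 2 and 97.0 in RNAi group 3, against 69.7 on the shared array, a mean log2 difference of 0.11 that turned to -0.05 with quantile normalisation. By limma 0 of the 2 passed in either direction.

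Of 25 listed targets of calcium sensors, 3 had a named probe set, each named by its locus alone in the reference table, and 0 passed in limma. The list calls them CAMTA5 (AT4G16150), CAMTA4 (AT1G67310) and CAMTA6 (AT3G16940), so all 3 share the CAMTA name and do not stand for the other listed targets. AT4G16150 had 217.1 in RNAi group 2 and 215.5 in RNAi group 3, against 345.5 on the shared array, a mean log2 difference of -0.68 (SE 0.50). AT1G67310 had 401.0 in RNAi group 2 and 385.3 in RNAi group 3, against 317.5 on the shared array, a mean log2 difference of 0.31 (SE 0.50). In AT4G16150 both RNAi groups lay below the shared array, and in AT1G67310 both lay above it. AT3G16940 had 604.3 in RNAi group 2 and 348.0 in RNAi group 3, against 433.2 on the shared array, a mean log2 difference of 0.08 (SE 0.55). Its RNAi groups were 1.74-fold apart, with the shared array between them, in the order seen for CML38. That order held for 23.3% of all probe sets past the filter. AT4G16150, AT1G67310, GLR3.3 and GLR3.6 did not have it.

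Of 18 touch and rapid stress genes, 2 had a named probe set and 0 passed in limma. STZ, a zinc finger repressor induced by cold and salt, had 5863.4 in RNAi group 2 and 4094.7 in RNAi group 3, against 5432.1 on the shared array, the same order as for CML38. WRKY53, a transcription factor of leaf senescence, had 360.5 in RNAi group 2 and 152.7 in RNAi group 3, against 110.5 on the shared array. It was 2.36-fold higher in RNAi group 2 than in RNAi group 3, and its mean log2 difference from the shared array was 1.09 (SE 0.64). Its lowest value was on the shared array, so WRKY53 did not have the order of CML38.

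Of 15 pollen markers, 4 had a named probe set. Their summed signals were 2202 in RNAi group 2 and 892 in RNAi group 3, against 47.2 on the shared array. AT5G45880 had 949.6 in RNAi group 2 and 391.6 in RNAi group 3, against 11.3 on the shared array. AT3G07820 and AT5G07430 were at 3.0 and 1.9 on the shared array. These 3 markers passed the filter on mean signal only through the RNAi arrays, where they are high, so their limma calls (adjusted p = 0.0478 each) are no support for a difference. With signals under 32 set to 32, 0 passed, and 0 passed without the filter. ACT12, a pollen actin and the fourth marker, had 46.3 in RNAi group 2 and 11.8 in RNAi group 3, against 31.0 on the shared array. The part of pollen content in the differences of the calmodulin-like genes was not tested. In such mixed tissue, fewer cells of a type and less RNA per cell cannot be told apart.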

How the data were processed

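The authors deposited 1 linear intensity per probe set and array. The submitters' processing notes name GCOS and MAS5, without versions. The trimmed mean of every column, with 2% taken from both ends, was 500.0 or 500.1, and no further scaling was applied. The number of arrays limits the precision. Detection calls were not used here.

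The planned samples were changed because of the identical columns: RNAi groups 2 and 3 were fitted against the shared array, and the fit of all 4 columns is an alternative. The members and lists were chosen with earlier results of these data known. After leaving out 64 control probe sets, log2 signals with a mean above the 30th percentile were kept (15922 probe sets). They were tested with lmFit and eBayes with an intensity trend in limma 3.58.1 (R 4.3.3), 2-sided, with Benjamini-Hochberg adjustment over all of them taking adjusted p under 0.05 as a call. The fit had 1 residual and 7.45 prior degrees of freedom. It lets the lone shared array vary as the RNAi arrays do. The labels call the plant groups independent, and the p-values measure only the spread between their 2 arrays. That spread is taken partly from the gene itself and, with more weight, from all probe sets through the prior. A gene with close RNAi values, such as AT4G16150, can thus have an SE of 0.50. CML43 took its SE from a fit over all probe sets. The procedure was run on simulated data with known changes, where the check covered only the mean estimate of those changes.

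Probe sets were named through the platform annotation and the TAIR10.1 reference table: 13513 were listed to 1 gene, of which 13436 matched the table, 503 to several genes, and 8794 were not listed. All members were described. From each pathway list, the rule named the 2 genes past the filter with the largest mean difference; AT1G76640, AT1G76660, AT3G16940 and the marker genes were named outside it. Alternatives changed the scaling, dim signals, filter, moderation, samples and member match.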

Additional observations from a re-analysis of the deposited data

How the results depend on the processing

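By limma, 0 of the calmodulin-like genes passed in any of the 9 alternatives that used every distinct array, nor with the synonym match. Over 62 values recomputed for single genes there, 0 changed sign. Only the settings that changed the scaling or the dim signals could change a sign. Those that changed the filter or the moderation keep each difference, and the fit of all 4 columns only shrinks it, so they are no check of direction. The fit of all 4 columns also holds the shared array on both sides of the comparison. Its lack of calls therefore adds no weight to the count of 0. The counts of 5 genes higher in RNAi group 2, 6 lower in RNAi group 3 and 4 with the shared order were recomputed after the data were seen and stayed within 1.5 times in each setting run for them. With the synonym match that adds AT1G76640, 2 genes in place of 1 were at least 2-fold apart between RNAi groups 2 and 3. With 1 RNAi array left out, no residual degrees of freedom remain: the median log2 difference ranged from -0.55 to 0.18, and 1 gene, CML41, differed 2-fold or more in either case, in opposite directions. Without RNAi group 3 the sign changed for CML37 (0.21), CML38 (0.14), CML41 (1.1), CML42 (0.37), AT1G76640 (-0.82), GLR3.6 (-0.26) and STZ (0.11), because these genes lay on opposite sides of the shared array in the RNAi groups. Without RNAi group 2 the values were -0.43 for CML37, -0.75 for CML38, -1.41 for CML41, -0.39 for CML42, 1.46 for AT1G76640, 0.48 for GLR3.6 and -0.41 for STZ. GLR3.6 was -0.05 with quantile normalisation; the cause was not tested. No paired analysis was possible because the GUS control is a single column, identical to that of RNAi group 1. Its title also has no number. CML43, near a signal of 32, is limited by its dim signal, and the other genes by the number of arrays.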
